A study of Rattus norvegicus with 8 samples.

Results

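The genes described here are 6 inflammatory cytokines of rat liver immune cells, Ifng, Tnf, Il1a, Il1b, Il18 and Tgfb1, out of 32754 genes listed. They were chosen by symbol, the cells by their total of at least 500 transcripts (unique molecular identifiers, UMIs), and the source lineages by the counts of 7 gate genes. In the fresh cells 11526 UMIs of Il1b, 4559 of Il18, 2671 of Tgfb1, 41 of Ifng and 9 of Il1a were counted, and the row named Tnf held none. The rise of Ifng in preserved cells was known from earlier results of these data, so that it is described here without a test.

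Immune cells had been isolated from the livers of 4 male Han Wistar rats. Rats NC1 and NC2 received the choline-sufficient CSAA diet and rats PC1 and PC2 the choline-deficient CDAA diet, which is used to model fatty liver disease with inflammation. Every cell suspension was sequenced fresh and again after cryopreservation for 3 weeks in serum with dimethyl sulfoxide (DMSO), with 10x Chromium 3′ chemistry, which gave 8 libraries. A group of one diet and one state holds 2 rats, both libraries of a rat come from 1 cell suspension, and the labels name no genotype or drug.

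The libraries held 3673 to 4771 cells each, 34053 in all, of which 18129 were fresh and 15924 preserved. The summed UMIs of all barcodes ranged from 18338700 to 26471843 and the median per cell from 3339 to 4309. Between 238 and 427 cells of a library lay just above the limit, under 1000 UMIs. Any pair of libraries shared 13 to 36 cell barcodes.

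These cytokines carry signals between immune cells. Interferon gamma, the product of Ifng, is made mainly by natural killer (NK) cells and T cells after activation and switches macrophages to an antimicrobial state. Tumour necrosis factor and interleukin-1 alpha and beta are early inflammatory signals of macrophages and monocytes, interleukin-18 is processed like interleukin-1 beta by caspase-1 and drives interferon gamma production, and transforming growth factor beta 1 restrains immune cells and drives fibrosis in the liver.

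Ifng is the member that differed most between fresh and preserved cells, and the window before its annotated start is shown for that reason. RefSeq lists the 250 bases before the annotated start of Ifng at chr7:55788930-55789179 on the plus strand of GRCr8, a later build than the Rnor6.0 build of the counts. Capitals mark the match to TATAAA, which was searched after the sequence had been seen.

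Ifng: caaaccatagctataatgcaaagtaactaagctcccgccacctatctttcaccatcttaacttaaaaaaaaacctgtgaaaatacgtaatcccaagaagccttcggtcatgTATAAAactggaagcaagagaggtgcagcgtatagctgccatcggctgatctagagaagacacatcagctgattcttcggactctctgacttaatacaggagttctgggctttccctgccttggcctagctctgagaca

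The match lies 139 to 134 bases before the annotated start of Ifng. The plus-strand match lay nearer to the start in Il1b (60 to 55), Tnf (46 to 41) and Il1a (32 to 27). Whether transcription of Ifng begins at the annotated start was not tested, so part of the window may be transcribed. On either strand, TATAAA occurs in 12.9% of the 33469 RefSeq promoters over the same 250 bases. None of the letters TGANTCA (AP-1), TGACGTCA (CRE), GGAAAA (NFAT core) or of the NF-kB consensus occurs in the Ifng window on either strand. Only exact matches were searched, so that sites with other letters are not excluded. They occur in 6.34%, 1.59%, 21.6% and 6.33% of all promoters. Of the other members, the window of Il1a held 1 match to TGANTCA, that of Il1b 1 match to GGAAAA and that of Tnf 2, while the windows of Il18 and Tgfb1 held none of the 4 motifs.

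Ifng (ENSRNOG00000007468) was counted 5 times in NC1, 10 times in NC2, 9 times in PC1 and 17 times in PC2 in the fresh libraries. The preserved libraries of the same rats held 36, 82, 53 and 72 Ifng UMIs. Every preserved library was above every fresh one.

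As a share of all UMIs in cells, Ifng made up 0.457 ± 0.199 CPM (UMIs scaled to a library total of 1000000; SD, n = 4) in fresh and 3.19 ± 1.22 CPM in preserved cells. The preserved value was 9.73 times the fresh one for NC1, 9.94 times for NC2, 6.08 times for PC1 and 4.51 times for PC2. The edgeR fit with the rat as a block gave a log2 fold change of 2.82 with a standard error (SE) of 0.29. In that fit 103 of 12163 genes passed (0.847%), where passing means an adjusted p below 0.05 and at least a 2-fold change. Nothing is read from that share for Ifng, whose rise was already known. Of the other 3 members that could be tested, none passed with edgeR or with DESeq2, and 1 (Il18) had an unadjusted p below 0.05. In bulk sums of this kind, fewer cells of a type and less RNA per cell cannot be told apart.

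Few cells carried the Ifng transcript. Ifng was found in 41 of 18129 fresh cells (0.226%), each with 1 UMI. It was found in 217 of 15924 preserved cells (1.36%), 19 of which had at least 2 UMIs and the highest 5. With each cell thinned to 1000 UMIs, the share was 0.0507% ± 0.0216 (SD, n = 4) in fresh and 0.349% ± 0.0745 in preserved cells, and it was higher in 4 of 4 rats. Barcodes of 1 to 100 UMIs, which hold RNA that is free in the suspension, carried 3 Ifng UMIs in the fresh and 23 in the preserved libraries, at 0.391 ± 0.475 and 2.99 ± 2.23 CPM. The level in free RNA thus moved with that in cells, and its part in the cell counts was not tested.

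**Figure D1:**
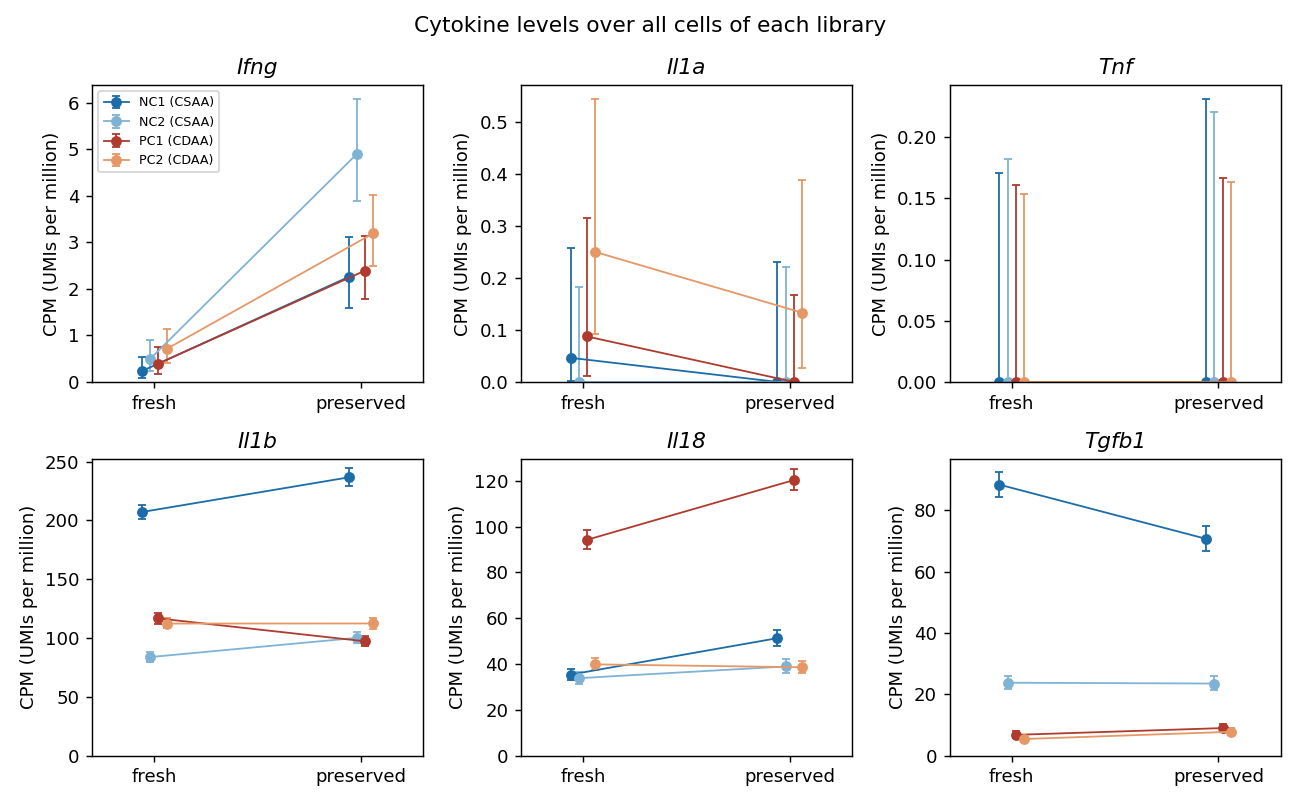
Level of each cytokine over all cells of a library, in CPM on linear axes from 0, with 1 point for each library, a line joining the fresh and preserved library of a rat and bars for the exact 95% Poisson interval of the count. Ifng lies between 0.232 and 0.709 CPM in fresh and between 2.26 and 4.90 CPM in preserved cells, the row named Tnf is listed at 0 throughout, and the rats keep their order for Tgfb1.

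The lineages were read from cells with at least 1 UMI of exactly one gate gene. Clec4f marks Kupffer cells, the resident macrophages of the liver, Vcan classical monocytes, Clec4a3 a further myeloid population, Siglech plasmacytoid dendritic cells (pDC), Cd79a B cells, Cd3e T cells and Ncr1 NK cells. These gates held 12884 cells, while 13802 cells carried several gate genes and 7367 none. With 1 UMI, 6 to 8 of the 7 or 8 check markers of each gate were highest in their own gate. With at least 2 UMIs of the gate gene, which left 5646 cells, at least 6 markers were highest in their own gate for 6 of the gates. In the Clec4a3 gate 2 of 7 markers were then highest, so that it is named by its gene alone.

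The gates were not pure. Markers of other lineages (Cd79b, Cd3d, Fcnb, C1qb, Nkg7 and Lyz2, chosen after the values were seen) stood in gates that should lack them at 0.514 to 0.674 times their all-cell level with 1 UMI. With 2 UMIs they stood at 0.457 to 0.506 times. A cytokine at or below that ratio in a gate is read as background.

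Among the gates, the Ifng level was highest in those of T and NK cells, which held 75 of the 243 preserved UMIs. In preserved cells the Ncr1 gate held 41 Ifng UMIs in 1287 cells, at 7.12 CPM, and the Cd3e gate 34 in 1357 cells, at 6.74 CPM. The exact 95% Poisson intervals were 5.11 to 9.65 CPM and 4.67 to 9.42 CPM and cover counting error only, as all such intervals here do. In the order NC1, NC2, PC1, PC2, the preserved Ncr1 gate stood at 11.2, 11.4, 2.77 and 7.45 CPM of Ifng, and the Cd3e gate at 4.98, 8.77, 5.94 and 6.11 CPM. The Ncr1 and Cd3e values overlapped, so the NK and T cell gates did not differ beyond the spread of the rats.

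The other gates held far fewer Ifng UMIs. After preservation the Siglech gate held 16 at 2.02 CPM, the Vcan and Cd79a gates 3 each, the Clec4a3 gate 2 and the Clec4f gate 1. With 2 UMIs of the gate gene, the Cd3e gate stood at 8.86 and the Ncr1 gate at 8.07 CPM for Ifng, while Siglech cells stood at 1.37 CPM and the Clec4f and Cd79a gates held 0 Ifng UMIs, which allows up to 21.2 and 2.53 CPM. By mean over the rats, the Vcan gate then came next after Cd3e, at 4.49 against 7.73 CPM, and their ranges overlapped. At 1 UMI the Clec4f gate came next after Cd3e, at a mean of 2.47 against 6.45 CPM, and these ranges overlapped too. The order of the T and NK cell gates over the others is thus not beyond the spread of the rats. Of the preserved Ifng UMIs, 100 lay in the gates, 40 in cells without a gate gene and 103 in cells with several. Cells without a gate gene thus stood at 4.45 CPM of Ifng (exact 95% Poisson interval 3.18 to 6.06) and those with several at 2.42 CPM. Preserved cells with a UMI of Cd3e or Ncr1 held 167 Ifng UMIs, at 3.97 CPM. Those with neither held 76, at 2.16 CPM, and included 9 of the 19 cells with at least 2 Ifng UMIs.

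In fresh cells the Ncr1 gate held 6 Ifng UMIs at 0.888 CPM, the Cd3e and Clec4a3 gates 2 each, and the remaining gates none. The fit within gates could test Ifng only in the Ncr1 gate, where it met the filter on low counts through the preserved libraries. No fresh library exceeded 1.23 CPM there. The log2 fold change with preservation was 3.08 (SE 0.56), and 0.843% of genes passed in that gate. With 6 fresh UMIs and a rise already known, nothing is read from this value. The Ncr1 gate held 1735 fresh and 1287 preserved cells, and its size did not change alike in the rats. Without a UMI of Klrg1, a receptor of mature NK cells, it held 337, 426, 262 and 292 fresh cells in NC1, NC2, PC1 and PC2. The preserved libraries held 96, 135, 254 and 390 such cells. The part of this shift in the fold change of Ifng was not tested. B cells, which should lack the gene, had Ifng in 0.388% of preserved cells of the Cd79a gate, against 3.03% in the Ncr1 and 2.06% in the Cd3e gate.

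**Figure D2:**
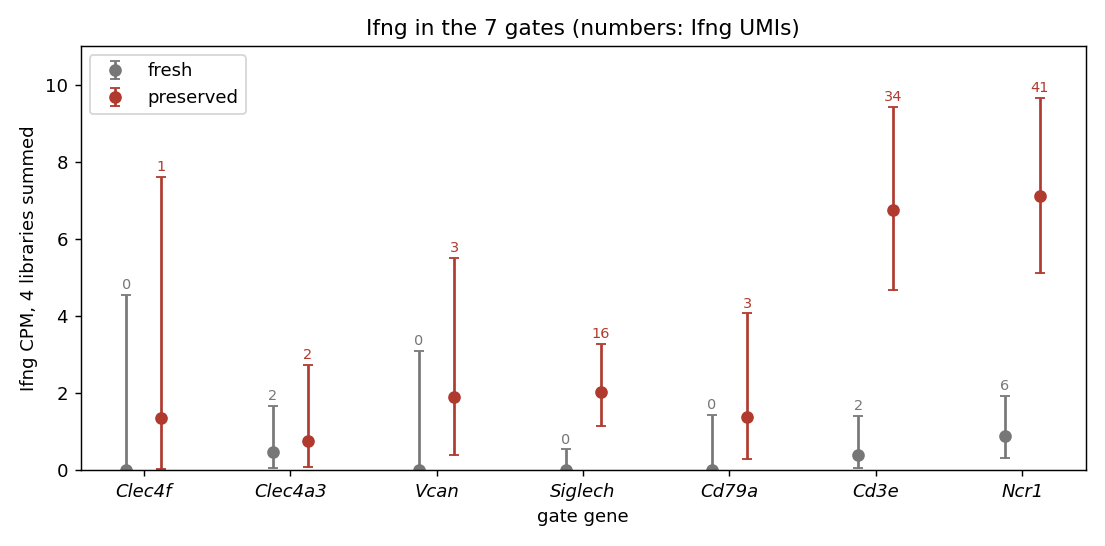
Ifng level in each gate at 1 UMI, with the UMIs of the 4 fresh or the 4 preserved libraries summed, in CPM on a linear axis, bars for the exact 95% Poisson interval and the number of Ifng UMIs above each bar. The preserved Cd3e and Ncr1 gates, with 34 and 41 UMIs, lie above the preserved Siglech gate with 16.

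Subsets of the gates were compared in preserved cells. Ncr1 cells with a UMI of Klrg1, a receptor of mature NK cells, carried Ifng at 9.89 CPM (6.04 to 15.3) and those without at 5.62 CPM (3.48 to 8.59). Cd3e cells with a UMI of Lef1, a factor of naive T cells, carried Ifng at 7.42 CPM (3.83 to 12.95) and those without at 6.43 CPM (4.03 to 9.73). These values sum the rats, which contributed unequally. Of the 20 Ifng UMIs in Ncr1 cells with Klrg1, 14 came from PC2 and 0 from PC1. Of the 12 in Cd3e cells with Lef1, 8 came from NC2. The intervals overlapped in both pairs but cover counting error only, and subset and rat were not separated, so that no conclusion on the subsets is drawn. Of the 217 preserved cells with Ifng, 24.4% also had Il1b, which 29.2% of all preserved cells had.

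The row named Tnf (ENSRNOG00000055156) was listed at 0 in all 8 libraries, in cells and in free RNA. With 3 counts as the limit, up to 0.0165% of fresh and 0.0188% of preserved cells could hold a UMI of that row, which limits neither the cells that express the gene nor reads assigned to another row. A row named LOC103694380, listed between Lta and Ltb, held 30 to 68 UMIs per library, 354 in all, and the files pair no other name with it. Whether the row named Tnf captures the transcripts of the gene was not tested, and no comparison of that row was possible.

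Il1a (ENSRNOG00000004575) was near the limit of detection. It was counted 1, 0, 2 and 6 times in the fresh libraries of NC1, NC2, PC1 and PC2, and 0, 0, 0 and 3 times in the preserved ones. The groups overlapped, and the filter on low counts left Il1a out of every main fit. No value of Il1a was recorded from the alternatives without that filter. For the thinned share of positive cells, the exact two-sided permutation test over the rats gave p = 0.25, the smallest it could give since NC2 held no Il1a in either state.

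Il1b (ENSRNOG00000004649) was the member counted most often. In fresh cells it stood at 207, 83.8, 117 and 112 CPM in NC1, NC2, PC1 and PC2. In preserved cells it stood at 237, 100.2, 97.2 and 112 CPM. NC1 was highest in both states, and fresh and preserved values overlapped. The log2 fold change with preservation was 0.10 (SE 0.08, edgeR adjusted p = 0.48).

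Il1b was found in 29.3% of fresh and 29.2% of preserved cells, and free RNA held it at 148 ± 55.5 and 164 ± 52.9 CPM (SD, n = 4), against 130 ± 53.4 and 137 ± 67.0 CPM in cells. Even B cells of the Cd79a gate had an Il1b UMI in 18.1% of fresh cells at a median depth of 2830 UMIs. The thinned share differed by 0.743 percentage points between states (exact permutation test over 4 rats, p = 0.375). With 4 rats that test cannot give less than 0.125.

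Its level was highest in myeloid gates. In fresh cells the Vcan gate stood at 315 ± 175 CPM, the Clec4a3 gate at 192 ± 81.7 and the Clec4f gate at 165 ± 72.7 (SD, n = 4), while the Ncr1 gate stood lowest at 88.0 ± 58.6. Neighbours in that order overlapped. Relative to all cells of the same library and with 2 UMIs of the gate gene, Il1b stood in fresh cells at 3.22 times (range 1.02 to 6.18) in Vcan cells and 1.51 times (at most 2.16) in Clec4a3 cells. The Vcan gate then held 95 fresh cells, with as few as 6 in a rat. By mean level the Clec4f gate came second, at 212 CPM, against 495 in Vcan and 193 in Clec4a3 cells. In the Siglech, Cd79a, Cd3e and Ncr1 gates Il1b stood at 0.454, 0.428, 0.467 and 0.479 times. Those ratios lie within or below the range of the other-lineage markers. The preserved ratios at 2 UMIs were 3.94 times in the Vcan gate and 0.512, 0.514, 0.539 and 0.318 times in the Siglech, Cd79a, Cd3e and Ncr1 gates, the first 3 of these slightly above that range. At 1 UMI the fresh ratios were 0.897, 0.729, 0.798 and 0.630 times in the same order, above the marker range except in the Ncr1 gate. What part of the Il1b counts in pDC, B, T and NK cells is background was not tested.

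**Figure D3:**
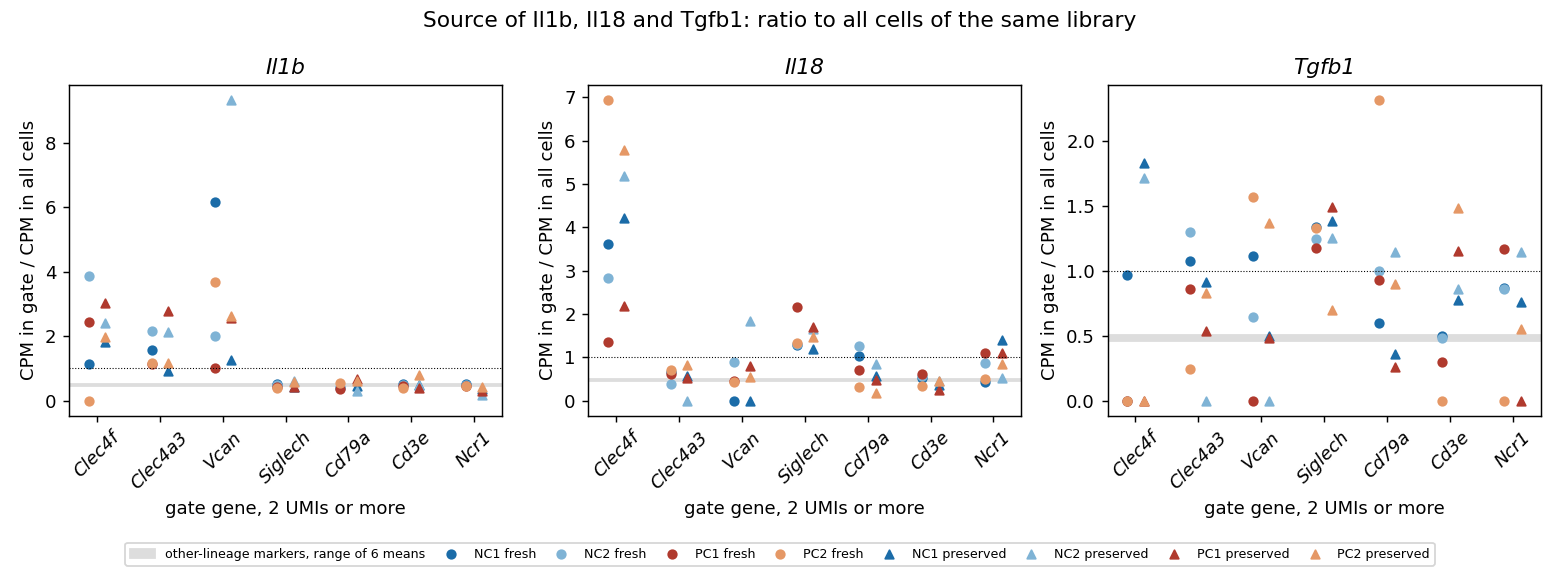
Ratio of a cytokine's CPM in a gate (at least 2 UMIs of the gate gene, no other gate gene) to its CPM in all cells of the same library, on linear axes, with 1 point for each library, circles fresh and triangles preserved. The grey band spans the mean ratios of the 6 other-lineage markers, 0.457 to 0.506. Il1b lies above 1 mainly in Vcan, Clec4f and Clec4a3 cells, Il18 in Clec4f and Siglech cells, and Tgfb1 most steadily in fresh Siglech cells.

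Within the Clec4a3 gate the log2 fold change of Il1b with preservation was 0.60 (SE 0.12, edgeR adjusted p = 0.015), below the 2-fold minimum. At 2 UMIs of the gate gene it was 0.28 (adjusted p = 0.68) and in gates that allow several gate genes 0.26 (adjusted p = 0.17), and the adjusted p was 0.71 without the rat as a block, 0.051 without PC1 and 0.13 without PC2. Without the minimum 2.05% of genes in that gate passed. In the other 6 gates Il1b did not pass. Beside Ifng in Ncr1 cells, 21 pairs of a member and a gate could be tested. None of the 21 passed in edgeR with the 2-fold minimum, 2 passed without it and 5 had an unadjusted p below 0.05. The shares of genes that passed were 0.872% in the Clec4f, 0.513% in the Clec4a3, 0.587% in the Vcan, 0.38% in the Siglech, 0.603% in the Cd79a and 0.48% in the Cd3e gate.

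A small set of cells held much of the Il1b. Cells with at least 10 Il1b UMIs numbered 156 fresh and 138 preserved, 0.381% to 1.96% of a library, and held 13.2% to 35.3% of its Il1b UMIs. The highest single cell had 125 UMIs. Ranked by Il1b, the top 1% of cells of a library held 22.4% to 30.2% of its Il1b UMIs. Ranked likewise by their own gene, the top 1% held 9.61% to 22.7% for Il18 and 11.3% to 41.5% for Tgfb1. The cells with at least 10 Il1b UMIs were deep, at median totals of 5347 to 9224.5 UMIs against 3339 to 4309 over all cells, and doublets were not removed. NC1 had 71 and 72 such cells and the other libraries 14 to 33. In fresh cells, 26 of them had no gate gene and 85 had several. S100a8 and S100a9, calgranulins abundant in neutrophils and monocytes, stood in them at 7.00 and 9.58 times the all-cell level, Lyz2, the lysozyme of myeloid cells, at 2.11 times, the Kupffer cell genes Clec4f and C1qb at 2.91 and 2.50 times, and the T and NK cell genes Cd3d and Nkg7 at 0.554 and 0.404 times. In preserved cells S100a8 and S100a9 stood at 5.64 and 8.63 times, C1qb at 1.35 times and Clec4f at 0.41 times. These cells were selected on Il1b and the markers after the values were seen, so the ratios are a description. The genes most like Il1b over the 56 profiles of gates and libraries were Cebpd (Pearson r = 0.79), Nr4a1 (0.78) and Alox5ap (0.78), as a description over profiles that share libraries.

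Il18 (ENSRNOG00000009848) stood at 35.4, 33.8, 94.2 and 39.9 CPM in the fresh libraries of NC1, NC2, PC1 and PC2 and at 51.3, 38.9, 120.3 and 38.6 CPM in the preserved ones. PC1 stood apart in both states, and fresh and preserved values overlapped. The log2 fold change with preservation was 0.32 (SE 0.09, edgeR adjusted p = 0.066), with 3 of 4 rats higher. Over the alternatives its adjusted p ran from 0.014 without a filter on low counts to 0.85 without the rat as a block, with 0.038 in DESeq2 and 0.028 without PC2, and the change stayed below 2-fold in each. Il18 was found in 16.7% of fresh and 19.8% of preserved cells, and the thinned share differed by 0.953 percentage points (exact permutation test over 4 rats, p = 0.25). Free RNA held Il18 at 58.6 ± 24.9 CPM in fresh and 70.6 ± 42.7 CPM in preserved libraries (SD, n = 4), against 50.8 ± 29.0 and 62.3 ± 39.1 CPM in cells. T cells of the Cd3e gate, at median depths of 3918 and 3523 UMIs, had an Il18 UMI in 9.71% of fresh and 8.99% of preserved cells. The part of free RNA in the Il18 values was not tested.

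By mean level, Il18 was highest in the Kupffer and pDC gates, and neighbours in the order of gates overlapped over the rats. With 2 UMIs of the gate gene it stood in preserved cells at 4.34 times its all-cell level (range 2.18 to 5.78) in Clec4f cells and at 1.51 times (1.20 to 1.71) in Siglech cells, and in fresh cells at 3.69 and 1.52 times. The Clec4f values rest on 28 preserved and 37 fresh cells, with as few as 2 fresh cells in a rat. Next in the order came the Ncr1 gate, at a mean of 64.1 CPM in preserved cells, against 97.0 CPM in the Siglech gate. T cells of the Cd3e gate stood at 0.382 times in preserved cells, below the range of the other-lineage markers. With preservation, Il18 in the Siglech gate gave a log2 fold change of 0.43 (SE 0.11, edgeR adjusted p = 0.049), below the 2-fold minimum, where 2.61% of genes passed without the minimum. At 2 UMIs of the gate gene it was 0.25 (adjusted p = 0.41), and the adjusted p was 0.10 in gates that allow several gate genes, 0.85 without the rat as a block, 0.12 without NC1 and 0.22 without NC2 or PC1. The most similar profiles were those of Cd5l (r = 0.71), a secreted protein of macrophages, Pld3 (0.68) and Nfkbib (0.66).

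Tgfb1 (ENSRNOG00000020652) differed between rats more than any other tested member. It stood at 88.3, 23.8, 6.78 and 5.42 CPM in the fresh libraries of NC1, NC2, PC1 and PC2 and at 70.6, 23.5, 8.99 and 7.77 CPM in the preserved ones. Both CSAA rats were above both CDAA rats in each state, and the highest was 16.3 times the lowest in fresh and 9.09 times in preserved cells. The log2 fold change with preservation was 0.14 (SE 0.13, edgeR adjusted p = 0.54). The thinned share differed by -0.37 percentage points (exact permutation test over 4 rats, p = 0.875).

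Ordered by Tgfb1 level, neighbouring gates overlapped over the rats. With 2 UMIs of the gate gene, Siglech cells stood at 1.27 times the all-cell level (range 1.18 to 1.34) in fresh and at 1.21 times (0.696 to 1.49) in preserved cells. By mean level in preserved cells the Clec4f gate then stood higher, at 42.5 CPM against 36.6 CPM in the Siglech gate. That Clec4f value rests on the few cells given above for Il18. The Cd3e gate stood at 0.32 times in fresh cells, below the range of the other-lineage markers, and at 1.07 times in preserved cells. These are means over rats, and the fresh Cd3e gate held as few as 46 cells in a rat. With so few cells and a low Tgfb1 level in the CDAA rats, the fresh ratio is not read as background. At 1 UMI the log2 fold change of Tgfb1 with preservation in the Cd3e gate was 0.33 (SE 0.25, edgeR adjusted p = 0.65). The most similar profiles were those of Scand1 (r = 0.83), Srsf2 (0.82) and Cops6 (0.81). The profiles of a rat share their libraries.

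The diet comparison set the 2 CDAA against the 2 CSAA rats. In fresh cells 117 of 11772 genes passed (0.994%), and none of the 4 tested members did in edgeR, where 2 of them had an unadjusted p below 0.05. Tgfb1 was lower under CDAA, with a log2 fold change of -3.17 (SE 0.61, edgeR adjusted p = 0.074), and it passed with DESeq2. Without a rat, which leaves 1 rat in a diet, the log2 fold change ran from -3.82 to -1.96. In preserved cells it was -2.50 (SE 0.47, edgeR adjusted p = 0.089), where 0.625% of genes passed and again no member, with 1 member at an unadjusted p below 0.05. Ifng gave 0.63 (SE 0.64, edgeR adjusted p = 0.63) in fresh and -0.41 (SE 0.44, edgeR adjusted p = 0.72) in preserved cells, Il1b -0.32 and -0.71 (adjusted p = 0.68 and 0.42), and Il18 0.97 and 0.81 (adjusted p = 0.24 and 0.51). Diet and rat cannot be told apart beyond 2 rats a group. The spread between the CSAA rats was itself 3.72-fold for fresh Tgfb1, and the Il18 value turned on PC1, without which it was 0.23 in fresh and -0.29 in preserved cells.

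Within gates of fresh cells, Tgfb1 was lower under CDAA in 3 gates. The log2 fold change was -3.67 (SE 0.44, edgeR adjusted p = 0.0063) in Clec4a3, -3.23 (SE 0.60, adjusted p = 0.042) in Siglech and -3.56 (SE 0.56, adjusted p = 0.036) in Ncr1 cells. In these gates 0.75%, 0.752% and 0.65% of genes passed. In Cd79a and Cd3e cells Tgfb1 gave -2.05 and -4.00 and did not pass (adjusted p = 0.23 and 0.18), and the shares of genes that passed were 0.137% and 0.493%. The Clec4f and Vcan gates, with 0.236% and 0% passing, had too few Tgfb1 counts. In the Vcan gate, where edgeR called 0 genes, 299 of 2682 had an unadjusted p below 0.05. The Ncr1 call was lost with 2 UMIs of the gate gene (log2 fold change -3.77) and without PC1 (-4.16) or PC2 (-2.97). Free RNA moved in the same direction, with Tgfb1 at 40.9 and 15.7 CPM in the fresh libraries of NC1 and NC2 and at 7.91 and 5.79 CPM in those of PC1 and PC2, and its part in the values within gates was not tested.

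Il1b was lower under CDAA without passing in the myeloid and pDC gates. Its log2 fold change was -1.07 in Clec4f, -0.74 in Clec4a3, -0.93 in Vcan and -0.83 in Siglech cells, with edgeR adjusted p from 0.22 to 0.41. The values depended on single rats. Without a rat, which leaves 1 rat in a diet, they ran from -1.31 to -0.82 in Clec4f and from -1.09 to -0.27 in Clec4a3 cells. In Vcan cells they ran from -1.34 to -0.19 and in Siglech cells from -1.21 to -0.24. At 2 UMIs of the gate gene the Clec4f value was -0.30. With 2 UMIs of the gate gene, Il1b in fresh Siglech cells is read as background. In total 3 of 18 tested pairs passed, all of them Tgfb1. At 2 UMIs of the gate gene 2 of 15 tested pairs passed.

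**Figure D4:**
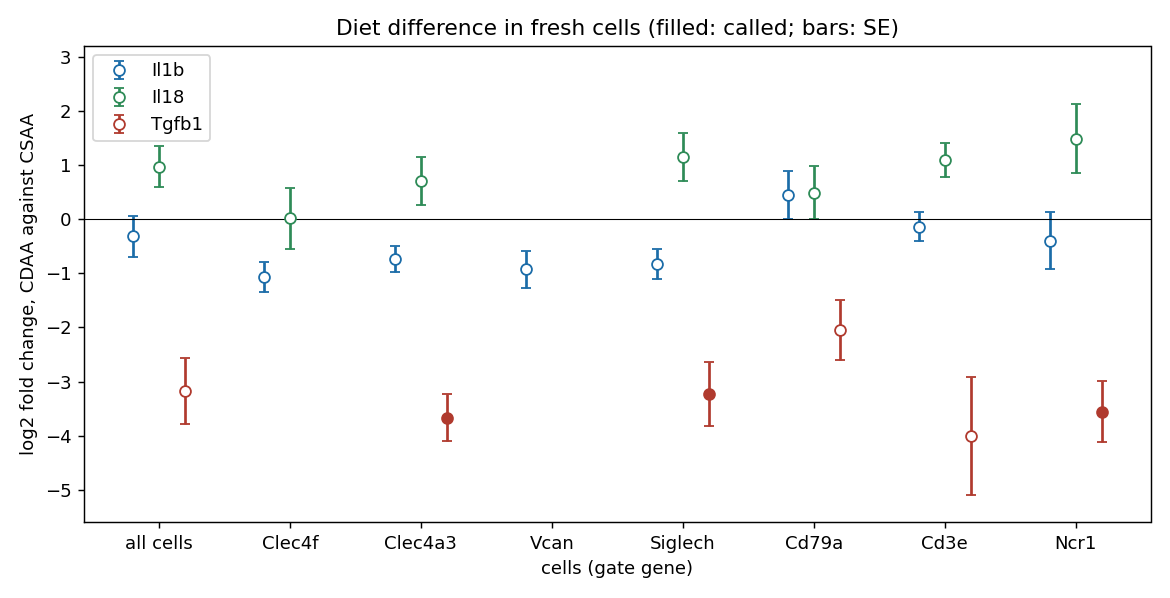
Log2 fold change of Il1b, Il18 and Tgfb1 between CDAA and CSAA rats in fresh cells, over all cells and within each gate at 1 UMI, with bars for the SE and filled points for values that passed. Tgfb1 lies between -2.05 and -4.00 in every set of cells where it could be tested and passes in Clec4a3, Siglech and Ncr1 cells.

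The interaction of diet and preservation asked whether preservation acted alike under both diets. Passing in that fit means an adjusted p below 0.05 with no fold minimum, unlike in the other fits. There 4 of 12163 genes passed (0.0329%), with no member among them, while 2 of the 4 tested members had an unadjusted p below 0.05. The ratio of preserved to fresh Tgfb1 of the rats NC1, NC2, PC1 and PC2 was 0.80, 0.989, 1.33 and 1.43, that is below 1 in both CSAA and above 1 in both CDAA rats. The interaction term was 0.62 (SE 0.17, edgeR adjusted p = 0.55), and that of Il1b -0.38 (SE 0.11, edgeR adjusted p = 0.58).

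Of 79 genes in 7 lists on the pathways of these cytokines, 62 could be tested for preservation, and 1 passed higher and 1 lower with the 2-fold minimum, against 0.847% of all genes. Their median log2 fold change was -0.17, that of all tested genes -0.0033. Zfp36, whose protein binds AU-rich elements and promotes the decay of cytokine mRNAs, rose in 4 of 4 rats, with 99.8 to 166 CPM in the fresh and 272 to 451 CPM in the preserved libraries (log2 fold change 1.53, SE 0.15, edgeR adjusted p = 0.0014). Zfp36 passed in every alternative run for preservation over all cells. The lists were chosen with earlier results of these data known, so the p-values of their genes are not independent of that choice. Il15, a cytokine that sustains NK cells, passed as lower, with 1.99 to 2.71 CPM in the fresh and 0.777 to 1.44 CPM in the preserved libraries (log2 fold change -1.08, SE 0.26, edgeR adjusted p = 0.037). It did not pass without the rat as a block (adjusted p = 0.19) or without NC2 (0.17), PC1 (0.13) or PC2 (0.11), and DESeq2 gave it no adjusted p. No preserved value of either gene lay within the fresh range.

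Without the 2-fold minimum, 8.25% of all genes and 9 of these 62 passed, 3 higher and 6 lower, and they are named after their values were seen. Beside Zfp36, the higher ones were Nfkbiz, a regulator of NF-kB targets (log2 fold change 0.78), and Osm, a cytokine of myeloid cells (0.60). Beside Il15, the lower ones were Gbp2, an interferon-induced GTPase (-0.44), Furin, the protease that cleaves the transforming growth factor beta precursor (-0.35), Nfkb1 (-0.29), Il1rn, the interleukin-1 receptor antagonist (-0.27), and Tnfrsf1a, a receptor of tumour necrosis factor (-0.24).

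By role, none of the 10 tested cytokine receptors, 9 processing and inflammasome genes, 4 transcription factors of Ifng and 10 target genes of interferon gamma passed with the 2-fold minimum in edgeR or in DESeq2. An unadjusted p below 0.05 was found for 2, 4, 1 and 2 of them. In lists of 4 to 10 genes, a count of 0 is near the 0.847% of all genes that passed. The median log2 fold change of the target genes was -0.12 and that of the transcription factors -0.23, while Ifng itself was higher in each preserved library.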

How the data were processed

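The deposited files held raw UMI counts per gene and barcode, made by the authors with Cell Ranger 2.1.1 on Rnor6.0 with Ensembl 86 annotation, unfiltered for cells. Counts are per 3′ end and not per length. Barcodes with at least 500 UMIs were kept as cells, doublets were not removed, and no cell was named beyond its gate gene. The members and gene lists were chosen with earlier results of these data known.

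UMIs were summed per library and tested with edgeR 4.0.16 (quasi-likelihood, TMM, filterByExpr, Benjamini-Hochberg over all genes tested). Preservation was fitted with the rat as a block, which pairs both libraries of an animal; deviations of a rat's libraries from the group means correlated at 0.445 to 0.593. Shares were compared by exact two-sided sign-change permutation over the 4 rats. Cells were thinned to 1000 UMIs, and those below that total were left out. Named pathway genes were those called for preservation over all cells, at most 4 per list, and those past the adjusted p alone were named after their values were seen; similar genes were the 3 with the highest Pearson r of log2(CPM + 1) over 56 profiles among genes of at least 10 CPM. The edgeR fits were tested on simulated counts without differences between rats, which does not cover the spread between the rats here. Alternatives included DESeq2 1.42.0. Intervals cover counting error only. With 2 rats a diet, p-values measure the spread between these rats.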

Additional observations from a re-analysis of the deposited data

Results flagged for a closer look

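PC1 stood far above the other rats for Il18, at 94.2 CPM in fresh and 120.3 CPM in preserved cells, and NC1 for Il1b in preserved cells, at 237 CPM. Il1a in preserved cells was seen in PC2 alone, at 0.133 CPM or 3 UMIs. These values exceed the 95% critical value of Dixon's ratio for 4 samples, which chance exceeds in about 1 of 20 groups. That rate does not hold for Il1a, where all other rats held 0 UMIs and the ratio is 1 whatever the count. Both Il18 values come from the same rat and are not independent. Ifng was also found outside cells: barcodes of 1 to 100 UMIs held it at a mean of 2.99 CPM in the preserved libraries, above the highest fresh value of 0.962 CPM. Single libraries overlapped, since preserved PC1 stood at 0.882 CPM. The counts were small, with 2 UMIs each in fresh NC1 and preserved PC1.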

How the results depend on the processing

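With preservation over all cells, Ifng stayed higher in every alternative that could test it, and Il1b, Il18 and Tgfb1 did not pass with the 2-fold minimum in any. At 10 counts in every library Ifng was filtered out. Of all genes, 103 passed for preservation, against 1003 without the 2-fold minimum, 55 with DESeq2, 56 at 10 counts in every library and 11 without the rat as a block. Leaving out a rat gave 31 (without NC2) to 203 (without NC1), 62 without PC1 and 54 without PC2. Of the pathway genes 2 passed, 9 without the 2-fold minimum, 1 with DESeq2, 1 without the block and 1 to 3 without a rat (1 without NC2 or PC1).

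The count of pairs within gates for preservation was 1, which is Ifng in Ncr1 cells, a description from which nothing is read. It was 3 without the 2-fold minimum and 3 in gates that allow several gate genes. At 2 UMIs of the gate gene and without the block it was 0, and without a rat 1 to 2. Of the diet pairs in fresh cells, 3 became 4 to 12 without a rat (12 without NC2, 7 without PC2).

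For diet, 117 genes passed in fresh cells, against 363 with DESeq2, 338 without a filter on low counts and 201 with the replicate number as a block, and 71 in preserved cells, against 249 with DESeq2 and 131 with that block. Rats of the same number did not deviate together (correlations of -0.0463 in fresh and 0.0508 in preserved cells), so that the numbers do not pair them. Without a library the counts ran from 23 (without PC2) to 443 (without NC2), with 370 without NC1 and 61 without PC1, and in preserved cells from 4 (PC2) to 306 (NC1), with 266 without NC2 and 8 without PC1. Tgfb1 passed for diet in both states with DESeq2 and with the replicate number as a block. Without a rat its log2 fold change ran from -3.82 to -1.96 in fresh cells. The Il1b value, which did not pass, changed sign without NC1 (0.45 in fresh and 0.018 in preserved cells) and was -1.17 without NC2 in preserved cells.

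For the interaction 4 genes passed, 47 without a filter, 0 without the rat as a block and 9 to 215 without a rat (9 without PC2, 23 without NC1, 48 without PC1, 215 without NC2). The cause of these changes was not tested. The share of cells with Tgfb1 differed by -0.58 to 0.12 percentage points without a rat and turned positive without NC1. The shares of the other detected members kept their direction in every alternative. Of the 369 member fold changes recomputed, 339 stayed on their side of the threshold, 27 newly passed, 3 no longer passed, and no value that passed changed sign. Of these fits, those for diet or the interaction without a rat leave 1 rat in a diet. The depth limits Il1a and Ifng within gates, and the row named Tnf held no UMI.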

Other observations

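A row named LOC103694380 (ENSRNOG00000000837), listed between Lta and Ltb, held 40, 50, 30 and 40 UMIs in the fresh libraries of NC1, NC2, PC1 and PC2 and 45, 68, 40 and 41 in the preserved ones. In the same order the row stood at 1.86, 2.47, 1.31 and 1.67 CPM in fresh cells. In preserved cells it stood at 2.82, 4.07, 1.81 and 1.82 CPM, higher in each rat, which was not tested. The files pair no other name with it, and it was not counted as Tnf. Lta, a cytokine gene of lymphocytes, held 60 to 135 UMIs per library and Ltb 0 to 3.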
